A study of Mus musculus with 9 samples.

Results

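A set of genes of the IL-6 pathway was followed in the livers of mice after acetaminophen (APAP) overdose, with and without adipose-derived mesenchymal stem cells (AMSCs). Its 10 members were chosen by name, and each matched 1 of the 54532 genes in the expression table. They were the receptor subunits Il6ra, Il6st, Osmr and Lifr, the transcription factor Stat3, the feedback inhibitors Socs2, Socs3 and Cish, and the transcription factors Cebpb and Cebpd. RNA was sequenced from whole liver of young male C57BL/6 mice in 3 groups of 3 libraries. The NC group was the normal control. Mice of the APAP group were fasted overnight, received 500 mg/kg APAP by intraperitoneal injection and were studied at 6 h. The AMSC group had the same dose and the same time point, and AMSCs were injected into the tail vein directly after APAP. The methods describe the fast for animals that received APAP and do not name the control mice separately, and a tail vein injection of mice without cells is not given in the sources used here. The AMSCs came from inguinal fat of mice of the same strain, so that RNA of the injected cells cannot be told apart from RNA of the host liver. Replicates are numbered 1, 2 and 3 in the NC and APAP groups and 2, 3 and 4 in the AMSC group, and values below are given in that order.

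Cytokines of the IL-6 family signal through gp130, the shared receptor subunit encoded by Il6st. IL-6 first binds its own receptor (Il6ra), whereas oncostatin M and leukemia inhibitory factor use gp130 paired with Osmr or Lifr. The bound receptor activates JAK kinases, which phosphorylate STAT3, and STAT3 dimers enter the nucleus and bind paired TTC and GAA half-sites. In hepatocytes, STAT3 and the C/EBP factors drive the acute-phase genes, and STAT3 also induces Socs3, whose product blocks gp130 and its kinases. Cish and Socs2 belong to the same family of inhibitors and are best known as targets of growth hormone and STAT5.

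RefSeq promoters (GRCm38.p6) matched 8 of the 10 genes by symbol, and Socs2 and Cebpd had no entry. In the 250 bases before each start site, the letters TTCNNNGAA, which read the same on both strands, and TGACG, searched on both strands, were looked up. No match of one overlapped the other. A TTCNNNGAA match lay in 7.02% of the 32851 promoter windows in the table, and a TGACG match in 17.8%. Socs3 was the single member with TTCNNNGAA, with 1 match whose first base is at -154 from the start site. Cebpb held 3 matches to TGACG, and Il6ra and Cish held 1 each. Shown are the promoters of Socs3, the single member with TTCNNNGAA, and of Cebpb, the member with the most TGACG matches. Il6ra and Cish also passed in a comparison below, and their promoters are not shown. The start sites are those of RefSeq. For Socs3, Cish, Osmr and Lifr the windows before them lie inside the deposited gene coordinates given below, which begin further upstream. The Socs3 stretch spans 250 to 101 bases before the RefSeq start (chr11:117969467-117969616, minus strand), with TTCNNNGAA in capitals. The Cebpb stretch spans 120 to 1 bases before the start (chr2:167688795-167688914, plus strand) and holds 2 of its 3 TGACG matches, in capitals. A match is a description of these letters and not a measured binding site.
Socs3: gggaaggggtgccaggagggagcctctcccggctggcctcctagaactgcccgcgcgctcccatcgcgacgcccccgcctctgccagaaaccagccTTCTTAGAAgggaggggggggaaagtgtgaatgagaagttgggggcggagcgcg
Cebpb: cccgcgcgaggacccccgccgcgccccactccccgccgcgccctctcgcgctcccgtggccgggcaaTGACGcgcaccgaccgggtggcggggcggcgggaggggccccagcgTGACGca

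Levels are given in FPKM, the deposited unit, which divides the reads on a gene by gene length and by a divisor for each library. This divisor, found from the values, was not the number of reads on genes. It was above that number in every NC library and below it in every APAP and AMSC library. For example, it was 17293708 beside 14920463 reads in NC replicate 2, and 12393268 beside 13640978 reads in APAP replicate 2. The reason for this was not tested. Reads on genes numbered 13418921 to 16210930 per library, and 1 read on a gene of 1 kilobase was worth 0.0578 to 0.0807 FPKM. Differences were tested with limma on log2(FPKM + 1) over the 9699 genes that averaged 1 FPKM or more, with Benjamini-Hochberg adjustment over all of them. A gene passed, and is said to have risen or fallen, at an adjusted p of at most 0.05. Fold changes are on the log2(FPKM + 1) scale, which understates the change of low genes. Of the 10 genes, 8 were above the 1 FPKM minimum. Osmr (mean 0.692 FPKM) and Socs2 (mean 0.923 FPKM) were below it, so they were taken from a fit of all 24849 genes above 0 and from a voom fit of the recovered reads over 12697 genes that averaged 10 reads or more, the latter added after the data were seen.

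After APAP, Stat3, Socs3, Cebpb and Cebpd rose, which were 4 of the 8 members in the fit of 9699 genes, and none of the 8 fell, beside 12.8% of all tested genes that rose and 13.1% that fell. Every APAP library was above every NC library for 4 of these 8 and below for 0, beside 20.9% and 22.3% of all tested genes. With Osmr, which was under the 1 FPKM minimum, 5 of the 10 members were above. Between the AMSC and APAP groups, 1 of these 8 rose, Il6ra, and 0 fell, beside 1.64% of all tested genes that rose and 2.14% that fell. Of the 8, the groups did not overlap for 1 that was higher and 1 that was lower in the AMSC group, beside 14.6% and 12.4% of all tested genes. With Osmr, 2 of the 10 members were lower. Against the NC group, 5 of the 8 rose in the AMSC group and 2 fell, beside 14.1% and 11.9% of all tested genes. Of these 2, Cish met the 1 FPKM minimum only through its NC libraries. In this comparison 5 of the 8 had all AMSC libraries above all NC libraries and 2 had all below, beside 23.2% and 20.3% of all tested genes. With Osmr, 6 of the 10 members were above. The median log2 fold change of the 8 tested members was 0.81, 0.20 and 1.48 in APAP against NC, AMSC against APAP and AMSC against NC, and that of all tested genes was -0.0043, 0.013 and 0.016. The 3 comparisons share libraries, since each group stands in 2 of them.

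**Figure D1:**
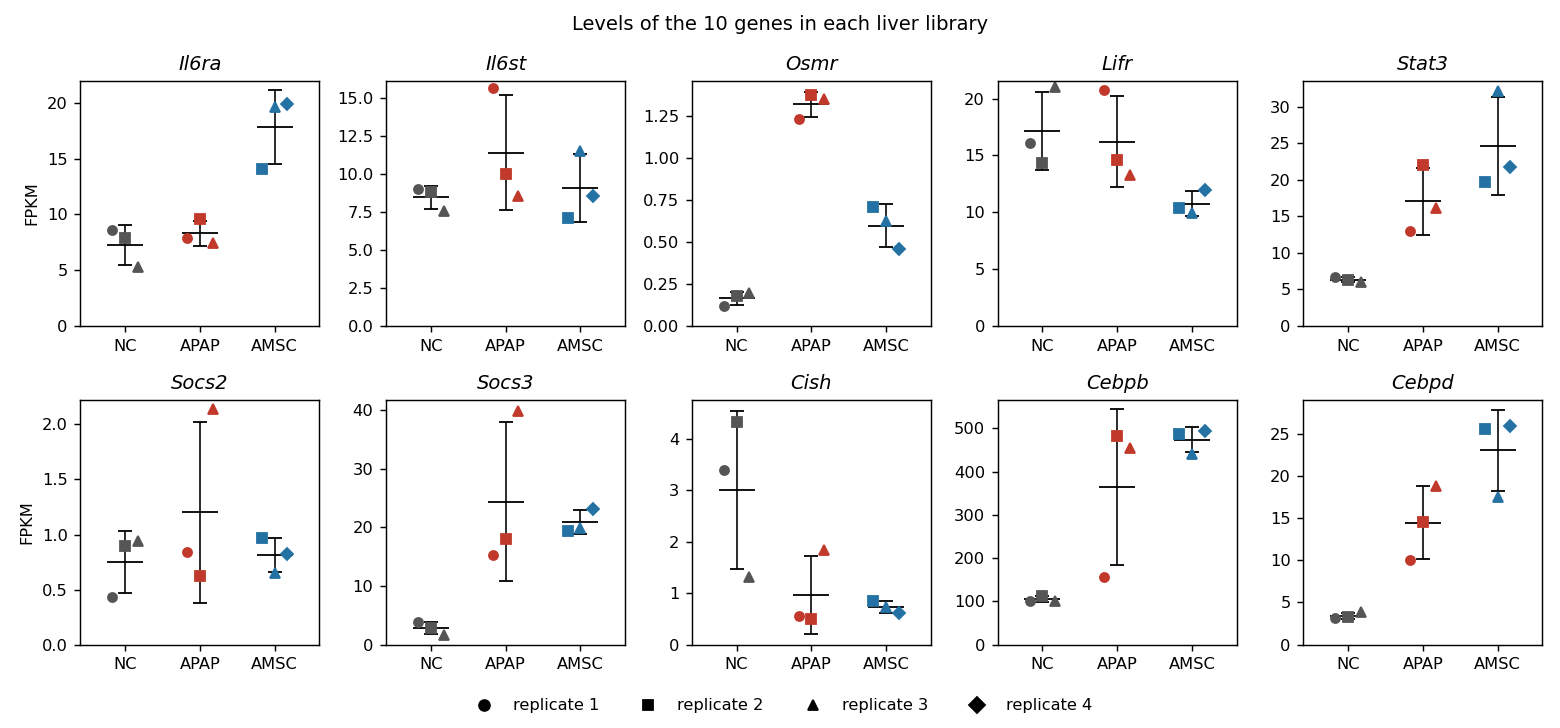
Level of each of the 10 genes in FPKM (linear axes from 0) in the 9 liver libraries, by group. Points are libraries, with the shape giving the replicate number, the long line is the group mean and the bars are the SD (n = 3). Stat3, Socs3, Cebpb and Cebpd are higher in all APAP and AMSC libraries than in all NC libraries, Il6ra is higher in the AMSC group only, and Osmr has its highest values in the APAP group.

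Among the receptor subunits, Il6ra (ENSMUSG00000027947, chr3:89864059-89913196, minus strand, GRCm38) separated the AMSC group from both other groups. Its level was 8.64, 7.89 and 5.26 FPKM in the NC libraries, 7.84, 9.60 and 7.46 FPKM in the APAP libraries and 14.0, 19.7 and 19.9 FPKM in the AMSC libraries. All 3 AMSC libraries lay above the other 6, while the NC and APAP libraries overlapped. The means were 7.26 ± 1.78, 8.30 ± 1.14 and 17.8 ± 3.31 FPKM (SD, n = 3), a ratio of AMSC to APAP of 2.15. Il6ra rose in AMSC against APAP by 1.01 in log2 fold change (SE 0.17, 95% confidence interval 0.62 to 1.40, adjusted p = 0.0259 from limma) and in AMSC against NC by 1.198 (SE 0.20, adjusted p = 0.00352). In APAP against NC the log2 difference was 0.19 (SE 0.19, 95% confidence interval -0.24 to 0.62, adjusted p = 0.494). The rise in AMSC against APAP passed in 10 of 15 alternatives, over which its log2 fold change was 0.90 to 1.17. Among those in which it did not pass were the fits without APAP replicate 3 (adjusted p = 0.0786), AMSC replicate 3 (0.0981) or AMSC replicate 4 (0.101) and the fit of all genes above 0 (0.128). Gm42809 overlaps Il6ra on the other strand at no more than 2.16 FPKM in any library.

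Il6st, which encodes gp130 (ENSMUSG00000021756, chr13:112464070-112510086, plus strand), passed in none of the comparisons. It was measured at 8.98, 8.80 and 7.58 FPKM in the NC group, 15.7, 9.996 and 8.51 FPKM in the APAP group and 7.13, 11.5 and 8.51 FPKM in the AMSC group. The groups overlapped, and APAP replicate 1 was the highest of the 9 libraries. The log2 difference was 0.35 (95% confidence interval -0.13 to 0.83, adjusted p = 0.251 from limma) in APAP against NC and -0.28 (-0.84 to 0.28, adjusted p = 0.566) in AMSC against APAP. Within each library, the ratio of Il6ra to Il6st was 0.694 to 0.962 among NC libraries, 0.501 to 0.960 among APAP libraries and 1.71 to 2.33 among AMSC libraries. The ligand-binding subunit was thus listed below the signalling subunit, per length, in the 6 NC and APAP libraries and above it in the 3 AMSC libraries.

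Osmr, the oncostatin M receptor subunit (ENSMUSG00000022146, chr15:6813577-6874969, minus strand), was the lowest member in the NC group. It was at 0.119, 0.177 and 0.197 FPKM in the NC libraries, 1.23, 1.37 and 1.35 FPKM in the APAP libraries and 0.707, 0.622 and 0.456 FPKM in the AMSC libraries. No library of one group overlapped another group, and the AMSC libraries lay between the other 2 groups. Its values rest on 24 to 219 reads per library. The mean was 8.02 times the NC mean in the APAP group and 3.63 times in the AMSC group, and the AMSC mean was 0.452 times the APAP mean. In the fit of all genes above 0, where 7.74% of genes passed, Osmr rose in APAP against NC by 0.99 in log2 fold change (SE 0.065, adjusted p = 0.00657 from limma). In the voom fit of the recovered reads, where 26.1% of genes passed, the rise was 3.01 (SE 0.25, adjusted p = 9.60e-05). It also rose in AMSC against NC, by 0.45 (SE 0.072, adjusted p = 0.0333, 7.15% of genes passed) and by 1.85 in the voom fit (SE 0.29, adjusted p = 0.00134, 25% passed). The difference between the AMSC and APAP groups was -0.54 in the first fit (SE 0.095, adjusted p = 0.133, 0.213% of genes passed) and -1.16 in the voom fit (SE 0.21, adjusted p = 0.0149, 4.67% passed), so that its call depended on the fit.

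Lifr, the receptor subunit for leukemia inhibitory factor (ENSMUSG00000054263, chr15:7090614-7197489, plus strand), was lowest in the AMSC group. The libraries held 16.1, 14.3 and 21.0 FPKM in the NC group, 20.8, 14.6 and 13.3 FPKM in the APAP group and 10.4, 9.92 and 11.99 FPKM in the AMSC group. All 3 AMSC libraries were below all others, and the NC and APAP libraries overlapped. Lifr fell in AMSC against NC by -0.61 in log2 fold change (SE 0.15, 95% confidence interval -0.96 to -0.26, adjusted p = 0.0202 from limma). The call held in 11 of 15 alternatives, and those in which it was lost included the fits without AMSC replicate 2 (adjusted p = 0.0624), without AMSC replicate 3 (0.0531) and of all genes above 0 (0.0956). In AMSC against APAP the difference was -0.53 (SE 0.18, adjusted p = 0.149), and in APAP against NC -0.08 (SE 0.20, adjusted p = 0.791). The ratio of Osmr to Lifr within a library was 0.00739 to 0.0123 among NC libraries, 0.0593 to 0.101 among APAP libraries and 0.0380 to 0.0679 among AMSC libraries. Osmr therefore stayed far below Lifr per length in all 9 libraries, and the NC ratios did not overlap those of the other groups.

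**Figure D2:**
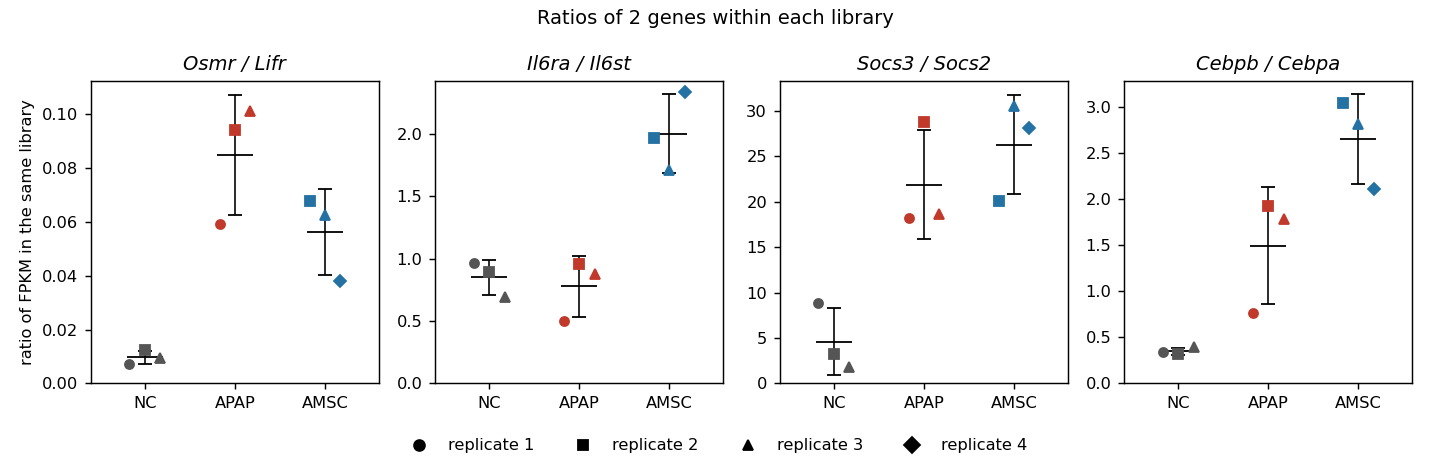
Ratio of the FPKM of 2 genes within each library (linear axes from 0), by group, with points for libraries, the long line for the mean and bars for the SD (n = 3). Il6ra/Il6st is 1.71 to 2.33 in the AMSC group and under 1 in all other libraries, and the NC libraries have the lowest Osmr/Lifr, Socs3/Socs2 and Cebpb/Cebpa.

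Stat3, the transcription factor downstream of these receptors (ENSMUSG00000004040, chr11:100885098-100939540, minus strand), rose in both groups that received APAP. It was at 6.65, 6.35 and 6.06 FPKM in the NC libraries, 13.1, 22.0 and 16.1 FPKM in the APAP libraries and 19.8, 32.2 and 21.8 FPKM in the AMSC libraries. The NC libraries were below all others and differed little among themselves, and the APAP and AMSC libraries overlapped. The means were 6.35 ± 0.294, 17.1 ± 4.56 and 24.6 ± 6.68 FPKM (SD, n = 3). The log2 fold change was 1.27 in APAP against NC (SE 0.18, 95% confidence interval 0.84 to 1.69, adjusted p = 0.00286 from limma) and 1.77 in AMSC against NC (SE 0.17, adjusted p = 0.000332), and both calls held in all 15 alternatives. Between the AMSC and APAP groups it was 0.50 (SE 0.24, 95% confidence interval -0.04 to 1.05, adjusted p = 0.274). Stat5a overlaps Stat3 on the other strand with at most 1.78 FPKM.

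Socs3, the feedback inhibitor of gp130 whose promoter is shown above (ENSMUSG00000053113, chr11:117966079-117970047, minus strand), had the largest fitted rise of the 8 tested members in both comparisons with the NC group. Its libraries held 3.77, 2.86 and 1.69 FPKM in the NC group, 15.2, 18.002 and 39.9 FPKM in the APAP group and 19.4, 19.96 and 23.2 FPKM in the AMSC group. Every library after APAP was above every NC library, and APAP replicate 3 was the highest of all. The log2 fold change was 2.66 in APAP against NC (SE 0.36, 95% confidence interval 1.83 to 3.50, adjusted p = 0.00225 from limma) and 2.57 in AMSC against NC (SE 0.20, 95% confidence interval 2.11 to 3.03, adjusted p = 0.000106), again in all 15 alternatives. In AMSC against APAP it was -0.09 (SE 0.32, 95% confidence interval -0.83 to 0.64, adjusted p = 0.903), and it turned to 0.31 without APAP replicate 3. The ratio of Socs3 to Stat3 was 0.279 to 0.567 among NC libraries, 0.818 to 2.48 among APAP libraries and 0.620 to 1.06 among AMSC libraries.

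Cish, an inhibitor of the same family and a known STAT5 target (ENSMUSG00000032578, chr9:107296026-107302784, plus strand), had lower means in both groups that received APAP. It was at 3.39, 4.31 and 1.31 FPKM in the NC libraries, 0.557, 0.503 and 1.83 FPKM in the APAP libraries and 0.853, 0.731 and 0.622 FPKM in the AMSC libraries. The AMSC libraries were all below the NC libraries, whereas APAP replicate 3 was above NC replicate 3, the NC library with another label date. Cish averaged 1.57 FPKM over the 9 libraries and met the 1 FPKM minimum only through the NC group. Its means were 3.01, 0.964 and 0.735 FPKM in the NC, APAP and AMSC groups. With that limit, Cish fell in AMSC against NC by -1.12 in log2 fold change (SE 0.28, 95% confidence interval -1.76 to -0.49, adjusted p = 0.0201 from limma). This was not passed without NC replicate 1 (adjusted p = 0.0683), NC replicate 2 (0.0584) or AMSC replicate 4 (0.0684), nor when all genes above 0 were tested (0.136). In APAP against NC the difference was -1.01 (SE 0.35, 95% confidence interval -1.83 to -0.19, adjusted p = 0.0735). It passed in 4 of 14 alternatives, among them without NC replicate 3 (log2 fold change -1.36, adjusted p = 0.0238) and without APAP replicate 3 (-1.30, adjusted p = 0.0396). Gm17040 and Gm17041 overlap Cish on the other strand at up to 1.11 FPKM, which is as high as some of its own values.

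Socs2, which restrains growth hormone signalling (ENSMUSG00000020027, chr10:95385362-95417180, minus strand), passed in no comparison. It was at 0.428, 0.892 and 0.939 FPKM in the NC group, 0.837, 0.626 and 2.14 FPKM in the APAP group and 0.964, 0.654 and 0.824 FPKM in the AMSC group. The groups overlapped, with APAP replicate 3 far above the rest. In the fit of all genes above 0, the log2 difference was 0.28 in APAP against NC (adjusted p = 0.586 from limma), -0.22 in AMSC against APAP (0.715) and 0.06 in AMSC against NC (0.876). The voom fit gave adjusted p of 0.410, 0.655 and 0.692 in the same order. The ratio of Socs3 to Socs2 was 1.80 to 8.82 among NC libraries, 18.2 to 28.7 among APAP libraries and 20.1 to 30.5 among AMSC libraries. APAP replicate 3 was thus the highest of its group for Socs2, Socs3 and Cish alike, while its ratio of Socs3 to Socs2 was close to that of APAP replicate 1.

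Cebpb, a C/EBP factor that drives acute-phase genes (ENSMUSG00000056501, chr2:167688915-167690418, plus strand), had the highest level of the 10 genes in every library. It was at 101, 112 and 99.6 FPKM in the NC libraries, 156, 482 and 454 FPKM in the APAP libraries and 487, 440.4 and 494 FPKM in the AMSC libraries. APAP replicate 1 lay between the NC libraries and the other APAP libraries, and the 3 AMSC libraries were close together. The means were 104 ± 6.97, 364 ± 180.3 and 474 ± 29.3 FPKM (SD, n = 3). Cebpb rose in APAP against NC by 1.63 in log2 fold change (SE 0.40, 95% confidence interval 0.71 to 2.55, adjusted p = 0.0210 from limma) and in AMSC against NC by 2.17 (SE 0.11, 95% confidence interval 1.92 to 2.42, adjusted p = 9.77e-06). The first call was lost in 6 of 15 alternatives, namely without NC replicate 1 (adjusted p = 0.0625), NC replicate 2 (0.0582), NC replicate 3 (0.0594), APAP replicate 2 (0.0682) or APAP replicate 3 (0.0621) and with all genes above 0 (0.120). The AMSC and APAP groups overlapped, with a log2 difference of 0.54 (SE 0.40, 95% confidence interval -0.37 to 1.46, adjusted p = 0.490). Tmem189 overlaps Cebpb on the other strand at up to 4.05 FPKM.

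Cebpd, its partner in the acute-phase response (ENSMUSG00000071637, chr16:15887286-15891031, plus strand), was measured at 3.18, 3.23 and 3.82 FPKM in the NC libraries, 10.1, 14.5 and 18.8 FPKM in the APAP libraries and 25.6, 17.5 and 25.9 FPKM in the AMSC libraries. The NC libraries were below all others, and AMSC replicate 3 fell within the APAP range. The means were 3.41 ± 0.353, 14.4 ± 4.35 and 23.0 ± 4.79 FPKM (SD, n = 3). Cebpd rose in APAP against NC by 1.77 in log2 fold change (SE 0.21, 95% confidence interval 1.29 to 2.25, adjusted p = 0.00127 from limma) and in AMSC against NC by 2.43 (SE 0.16, adjusted p = 4.58e-05), both in all 15 alternatives. In AMSC against APAP it was 0.66 (SE 0.24, 95% confidence interval 0.10 to 1.21, adjusted p = 0.178). Cebpa, the C/EBP factor of the resting liver, had means of 301, 236 and 184 FPKM in the NC, APAP and AMSC groups, and the ratio of Cebpb to Cebpa within a library was 0.316 to 0.391, 0.764 to 1.93 and 2.11 to 3.04. Cebpb was therefore below Cebpa per length in the NC libraries and in APAP replicate 1, and above it in the other 5.

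**Figure D3:**
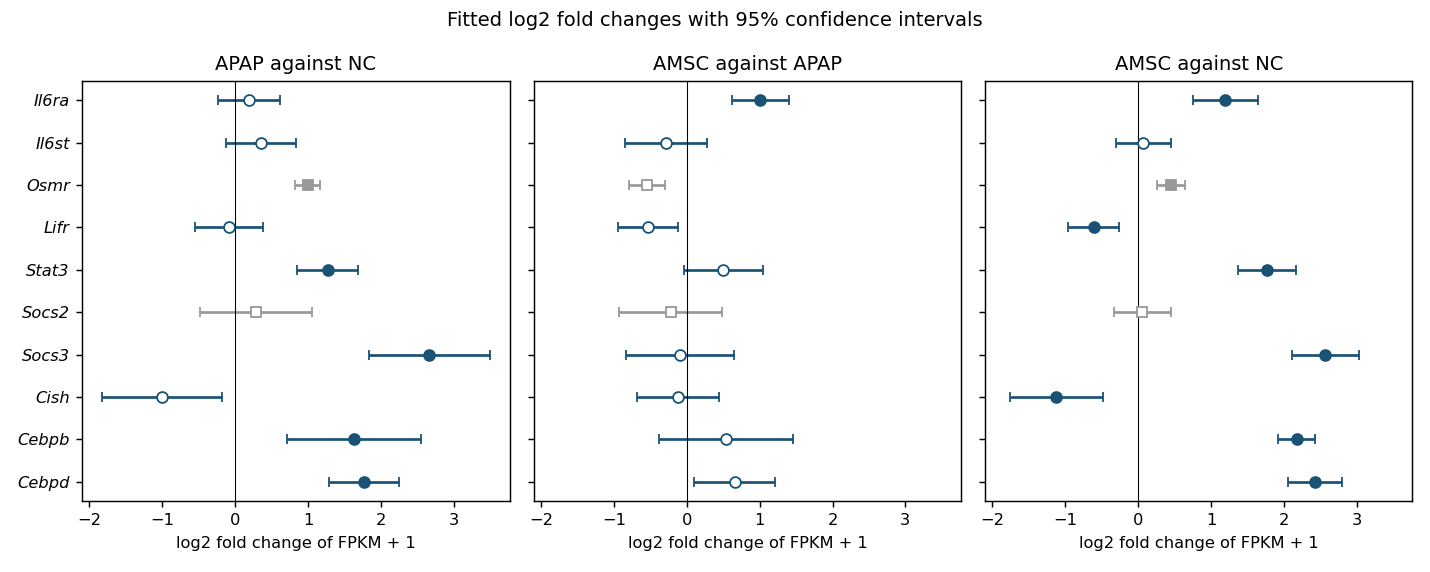
Fitted log2 fold change of FPKM + 1 with 95% confidence interval for each gene in the 3 comparisons. Blue circles are from the fit of 9699 genes and grey squares (Osmr and Socs2) from the fit of 24849 genes, and a filled symbol passed at an adjusted p of at most 0.05. In AMSC against APAP, Il6ra is the filled symbol and all others are open.

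Ordered by mean FPKM, the NC group ran Cebpb, Lifr, Il6st, Il6ra, Stat3, Cebpd, Cish, Socs3, Socs2 and Osmr. Neighbours whose library values overlapped were Il6st with Il6ra, Il6ra with Stat3, Cebpd with Cish and Cish with Socs3. After APAP, Socs3 moved from the eighth place to the second, behind Cebpb. The 6 genes from Socs3 to Il6ra in that group each overlapped the next, so their order there is not resolved. In the AMSC group Cebpb was followed by Stat3, Cebpd, Socs3 and Il6ra, whose neighbours overlapped, and these 4 stood above Lifr and Il6st. Socs2, Cish and Osmr were the lowest in both groups after APAP, and their neighbours overlapped.

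Genes of the same pathway were described from lists compiled by hand. Over all tested genes, 12.8% rose and 13.1% fell in APAP against NC, with a median log2 fold change of -0.0043. The shares were 1.64% and 2.14% (median 0.013) in AMSC against APAP, and 14.1% and 11.9% (median 0.016) in AMSC against NC. The list counts below are to be read beside these. Of 10 IL-6 family ligands, Ctf1 alone was above the 1 FPKM minimum and passed in no comparison (log2 differences of -0.44, -0.16 and -0.60 in APAP against NC, AMSC against APAP and AMSC against NC). Il6 was at 0 to 0.153 FPKM in all 9 libraries, so the transcripts of the founding cytokine were near the limit of detection. Clcf1, another ligand that signals through gp130, was under the minimum too, with NC libraries at 0.145 to 0.172 FPKM, APAP libraries at 0.663 to 1.78 FPKM and AMSC libraries at 0.394 to 0.424 FPKM. Its 3 groups did not overlap, with the APAP libraries highest, and Gm26115 overlaps it on the other strand at up to 0.927 FPKM.

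Of 18 other cytokine receptors, 9 were tested. Il4ra, the interleukin 4 receptor, and Ifngr1, an interferon gamma receptor subunit, rose in APAP against NC (log2 fold changes 1.44 and 0.71), and none fell. None passed in AMSC against APAP, and 2 rose and 1 fell in AMSC against NC, the fall being that of the growth hormone receptor Ghr (-0.51, adjusted p = 0.0390 from limma). Among other JAK and STAT genes, the kinases Jak2 (log2 fold change 1.004) and Jak1 (0.53) rose in APAP against NC, and Stat6 (-0.43) fell. Jak2, the kinase of the growth hormone receptor and one of those bound to gp130, was the single gene of this list that passed in AMSC against APAP. It was at 2.19, 2.07 and 2.26 FPKM in the NC libraries, 5.16, 5.76 and 5.19 FPKM in the APAP libraries and 2.45, 2.66 and 3.24 FPKM in the AMSC libraries. The APAP libraries were above all others, and the fall in the AMSC group was -0.75 on the log2 scale (SE 0.13, adjusted p = 0.0259 from limma). None of this list rose in AMSC against NC.

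Of 17 other brakes of JAK-STAT signalling, 15 were tested, and 3 rose in APAP against NC, with log2 fold changes of 1.41 for the phosphatase gene Ptpn2, 0.91 for Socs7 and 0.72 for the phosphatase gene Ptpn1. None passed in AMSC against APAP. In AMSC against NC, 3 rose (Ptpn2 0.97, Ptpn1 0.61, Socs6 0.42) and 2 fell (Socs5 -0.62, Pias3 -0.54). Among 5 other C/EBP genes, Ddit3, which encodes the stress-induced factor CHOP, rose in APAP against NC (log2 fold change 3.73, adjusted p = 0.00142 from limma) and in AMSC against NC (4.27, adjusted p = 8.35e-07). Its symbol stood in 2 rows, and only the row above the 1 FPKM minimum was tested. Cebpg fell in APAP against NC (-0.67) and Cebpa fell in AMSC against NC (-0.72, adjusted p = 0.0266 from limma), and none of the 5 passed in AMSC against APAP.

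The list of STAT3 and C/EBP targets of the acute-phase response held secreted proteins, transcription factors and kinases. Of 32 genes, 29 were tested, and 13 rose and 3 fell in APAP against NC, with a median log2 fold change of 0.39. The largest rises were those of the transcription factor genes Junb (4.58) and Myc (3.10) and the kinase genes Pim3 (2.67) and Pim1 (1.98), while Saa4 (-1.57), the hepcidin gene Hamp (-0.97) and Steap4 (-0.69) fell. In AMSC against APAP, 11 rose and 0 fell, with a median of 0.61, beside 1.64%, 2.14% and a median of 0.013 over all tested genes. Here the leading genes were the serum amyloid genes Saa2 (5.26) and Saa1 (4.10), Lcn2, which encodes the iron-siderophore binding lipocalin 2 (3.90), and Orm2, which encodes orosomucoid 2 (2.66). Lcn2 was at 2.54, 2.03 and 2.35 FPKM in the NC libraries, 4.43, 15.1 and 9.67 FPKM in the APAP libraries and 145, 236 and 87.8 FPKM in the AMSC libraries. No 2 groups overlapped, and Lcn2 rose in both steps. Saa2 ranged from 2.71 to 4.41 FPKM in the NC libraries, from 2.63 to 4.81 FPKM in the APAP libraries and from 65.3 to 429 FPKM in the AMSC libraries, so it was high in the AMSC libraries only, and reads of Saa1, Saa2 and the Orm genes could have been split among paralogs. Against the NC group, 23 rose in the AMSC group and 1, Crp (-0.59), fell, with a median of 1.18. The count of 11 in AMSC against APAP was 7 without APAP replicate 2, 7 without APAP replicate 3, 6 without AMSC replicate 2 and 0 when all genes above 0 were tested.

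Growth hormone and STAT5 targets of the male liver were listed beside Cish and Socs2. All 12 were tested. In APAP against NC, the major urinary protein genes Mup20 (log2 fold change 0.86) and Mup3 (0.62) rose, and the transcription factor gene Onecut1 (-1.79), the steroid dehydrogenase gene Hsd3b5 (-1.14) and Igfals (-0.88), which encodes a subunit of circulating IGF complexes, fell. Onecut1 met the 1 FPKM minimum only through the NC group, with means of 3.91, 0.307 and 0.369 FPKM in the NC, APAP and AMSC groups. Mup reads are shared among near-identical paralogs, so their separate values are uncertain. None passed in AMSC against APAP. In AMSC against NC 4 fell, namely Hsd3b5 (-2.20), Onecut1 (-1.73), Igfals (-1.55) and the oxysterol hydroxylase gene Cyp7b1 (-1.08), and none rose.

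**Figure D4:**
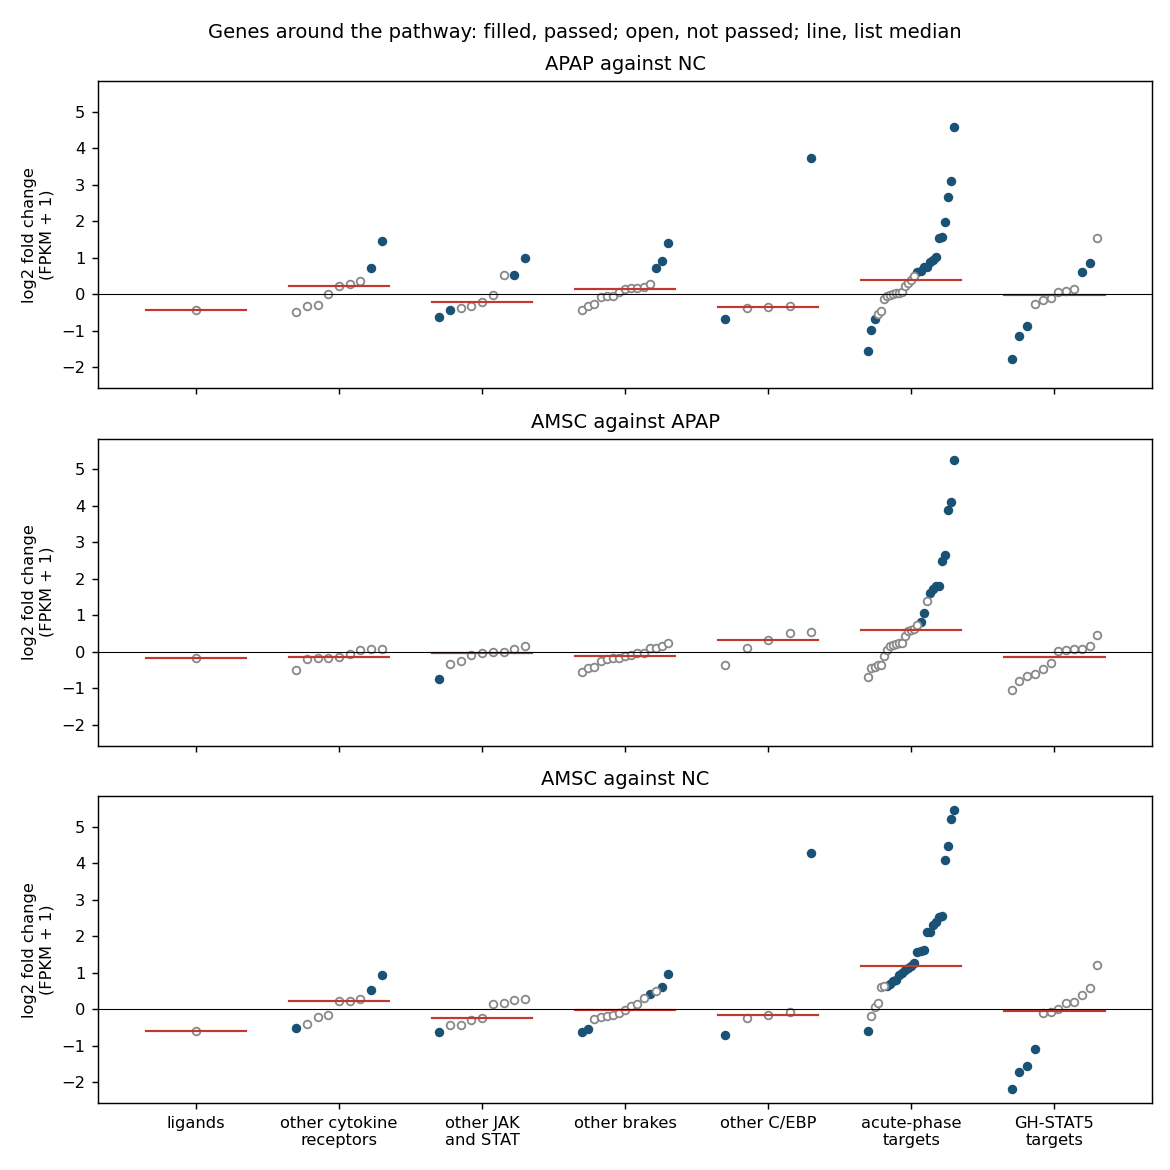
Log2 fold change of FPKM + 1 of each tested gene in the 7 lists, for the 3 comparisons. Filled points passed at an adjusted p of at most 0.05, open points did not, and the red line is the median of the list. The acute-phase targets have 11 filled points in AMSC against APAP, all above 0, where the single other filled point is Jak2.

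For each member, the 2 tested genes with the most similar pattern were found by Pearson's r of log2(FPKM + 1) over the 9 libraries, as a description only, since all genes share the 3 groups and the libraries. They were Slc48a1 and Ppp6r3 for Il6ra (both r = 0.985), Gm9531 (0.969) and Camsap1 (0.957) for Il6st, Serpina1a (0.984) and Dusp6 (0.983) for Osmr, and Cyp2c70 (0.956) and Cyp7b1 (0.951) for Lifr. Stat3 was closest to Gclc (0.986) and Mark3 (0.982), and Socs3 to Ndel1 (0.981) and Cdyl (0.980). For Cish the nearest genes were Mvd (0.977) and Mvk (0.975), which encode enzymes of sterol synthesis, and for Socs2 they were Gm11942 (0.984) and Rilpl2 (0.967). Cebpb ran with Sds (0.987), which encodes serine dehydratase, and the chemokine gene Cxcl1 (0.987), and Cebpd with Kcmf1 (0.988) and the immediate-early gene Fosb (0.988).

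The hepatocyte markers were the most abundant marker list in every library, with summed levels of 37947 to 41093 FPKM (NC), 54841 to 63880 FPKM (APAP) and 47652 to 50407 FPKM (AMSC) (5 of the 6 listed genes matched). Markers of some other cell types also differed between the groups. The 7 Kupffer cell and macrophage markers summed to 53.6 to 108 FPKM (NC), 79.8 to 195 FPKM (APAP) and 44.5 to 72.1 FPKM (AMSC), with Cd68 passing in APAP against NC (higher) and in AMSC against APAP (lower). Neutrophil markers summed to 0.173 to 1.66, 7.14 to 33.5 and at most 5.73 FPKM in the same order. Every AMSC sum lay above all NC sums and below all APAP sums. The tested neutrophil genes S100a8, S100a9 and Retnlg rose in both comparisons with the NC group, and none of them passed in AMSC against APAP. The defining neutrophil genes Ly6g and Mpo were under 0.1 FPKM in every library. The cholangiocyte list was at 2.43 to 4.96, 23.0 to 37.6 and 5.24 to 5.62 FPKM, of which Sox9 made up most in the APAP group. Erythrocyte genes summed to 130 to 238, 292 to 1341 and 174 to 292 FPKM, and were highest in APAP replicates 1 and 3. Endothelial markers (16.3 to 37.7, 19.4 to 52.6 and 18.4 to 20.3 FPKM), stellate and stromal markers (18.7 to 33.2, 23.5 to 55.0 and 24.6 to 40.8 FPKM) and lymphocyte markers (0.447 to 1.32, 0.761 to 1.92 and 0.827 to 1.53 FPKM) overlapped between the groups in their sums. Of their single genes, the endothelial marker Pecam1 passed as higher in APAP against NC (log2 fold change 0.91, adjusted p = 0.0313 from limma) and the stellate marker Lrat as lower in AMSC against NC (-0.74, adjusted p = 0.00812). The part of these cells in the members' differences was not tested. In whole liver, fewer cells of a type and less RNA per cell cannot be told apart.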

How the data were processed

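Livers of 9 mice were sequenced as bulk RNA, and groups were taken from the sample labels. The authors deposited FPKM per gene, with gene lengths and coordinates, for 54532 genes. The submitters' processing notes name GRCm38 (mm10), and the aligner, the counting program and the use of strand are not given in the sources used here. FPKM times length came out as whole multiples of a step, within 0.1, for 100% of values above 0, which gave reads per gene.

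Values were put on the log2(FPKM + 1) scale, and genes averaging 1 FPKM or more were tested with limma 3.58.1 (lmFit, eBayes with trend, two-sided) in R 4.3.3, with the 2 groups compared in each fit. The authors' own comparison used a count test. The methods give 3 biological replicates per group, and the labels do not name the animals. The fits were tested on simulated data. Figures were drawn with Python 3.11.15 and matplotlib 3.10.9.

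The members and all gene lists were chosen with earlier results of these data known. Named genes were all 10 members and the 2 genes most like each member. Of each list, up to 4 risen and up to 4 fallen genes with the largest change in a comparison were named. Further genes, such as Cebpa, Il6 and Clcf1, were named to describe the pathway, the cell types or overlaps. The settings varied were the pseudocount (0.1), the filter (all genes above 0, or an average of 5 FPKM), a common sum per library (TPM), quantile normalization, all 9 libraries in 1 fit, no trend, voom on recovered reads, the replicate number as a block, and leaving out each library. In APAP against NC, same-numbered libraries deviated together from their group means (correlations 0.213, 0.160 and 0.378). Libraries with different numbers were not compared in this way, so these values do not show that the numbers are pairs. The main tests are unpaired in all 3 comparisons, and the block on replicate numbers is an alternative only. In APAP against NC, blocking on the numbers changed the call of none of the members. NC replicate 3 carries another label date than the other libraries, and no fit can separate that date from this library. A gene of the lists is not reported here.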

Additional observations from a re-analysis of the deposited data

How the results depend on the processing

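Of the 363 log2 fold changes of members under an alternative, 328 kept their direction and their side of the threshold, 19 lost the call, 5 gained it and 11 changed sign, none of the latter called. The sign changes with a common sum per library (TPM) were -0.089 for Il6ra in APAP against NC, 0.00050 for Socs3 in AMSC against APAP and -0.12 for Il6st in AMSC against NC. Without NC replicate 3 they were -0.00057 for Il6ra and 0.064 for Lifr in APAP against NC and -0.00034 for Il6st in AMSC against NC. Without APAP replicate 3 they were 0.038 for Lifr in APAP against NC and, in AMSC against APAP, 0.31 for Socs3 (range without a library -0.36 to 0.31) and 0.18 for Cish (-0.28 to 0.18). Without AMSC replicate 3, Il6st was at -0.10 in AMSC against NC (-0.10 to 0.21). The replicate block gave -0.013 for Cebpb in AMSC against APAP. The count of passed members in AMSC against APAP, 1, was 0 with all genes above 0 and 0 with the replicate block, and 0 to 1 when a library was left out.

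Passed genes in APAP against NC numbered 2514, 1318 with a mean of at least 5 FPKM, and 1353 to 2749 without a library. In AMSC against APAP they numbered 367, 53 with all genes above 0, 178 with the 5 FPKM minimum, 624 with all 9 libraries in 1 fit, and 100 to 366 without a library. In AMSC against NC they numbered 2521, 1509 with the 5 FPKM minimum, 846 with the replicate block, and 1678 to 2356 without a library. Fewer genes are tested with the 5 FPKM minimum, and the cause of the other moves was not tested. Under TPM the median of all genes moved to -0.26, 0.093 and -0.16 in the 3 comparisons, and the share of higher genes among those passed went from 49.4% to 20.3%, from 43.3% to 58.6% and from 54.2% to 28%. The members that passed in the comparisons with the NC group passed under TPM too. In the comparisons with the AMSC group, same-numbered libraries did not deviate together (correlations -0.104 and -0.293 with APAP, -0.199 and -0.309 with NC). Libraries with different numbers were not compared there either, so these values do not settle whether the numbers are pairs. With the replicate block, Il6ra did not pass in AMSC against APAP (adjusted p = 0.0786 from limma) and Lifr did not pass in AMSC against NC (0.108), and the other member calls held. Of 315 list counts under alternatives, 62 moved by over 1.5 times. Depth limits Osmr, Socs2 and Cish, at 24, 68 and 40 reads in their lowest library.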
